A study of Mus musculus with 6 samples.

Results

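The mitochondrial ribosomal proteins are encoded by 76 nuclear genes of the table analysed here, 47 for the large subunit and 29 for the small subunit. Members were taken by symbol, Mrpl or Mrps followed by a number and an optional letter, out of 23276 gene symbols. They were listed with 122 of 54721 transcript entries, and each gene was represented by its entry with the highest mean abundance. RNA of whole kidneys was sequenced from 6 mice at post-natal day 22, 3 in each of the 2 groups. The first group, *Pkd1* F/RC SKO (single knockout), was KspCre; *Pkd1* F/RC. The second, *Pkd1* F/RC DKO (double knockout), had the same alleles and in addition both copies of the miR-17∼92 cluster floxed (miR17∼92 F/F). All mice of both groups therefore carried the Cre recombinase, a floxed *Pkd1* allele (F) and the hypomorphic germline RC allele. The Cre was driven by the Ksp promoter, which is active in renal tubules, so that podocytes, vessels, fibroblasts and leukocytes of the same kidney were not its targets. Kidneys without Cre were not analysed here.

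The value used is the authors' mean abundance over the 6 libraries, as a log2 of CPM (read counts scaled to library size). It was turned into CPM for the text. The mean mixes kidneys of both genotypes, so that it gives the level of each gene in cystic kidneys of this age and says nothing of the effect of the miR-17∼92 deletion. Values of single kidneys were not analysed here, so the depth of each library is unknown and no value below has an error between kidneys or a test. The host transcript of the deleted cluster, *Mir17hg*, had a mean of 4.21 CPM, which as a mean over both genotypes cannot check the group labels. Markers of kidney cells were present, with 1030 CPM for *Slc34a1* (proximal tubule), 1022 CPM for *Umod* (thick ascending limb), 77.7 CPM for *Aqp2* (collecting duct) and 12.97 CPM for *Nphs1* (podocytes). The lowest of the kidney markers was *Pvalb* (distal convoluted tubule) with 3.14 CPM. Of 7 markers of other organs, *Alb* had 13.4 CPM, *Adipoq* 5.82 CPM and *Apoa2* 1.34 CPM, and the other 4 (*Myh6*, *Tnni3*, *Cyp11b1* and *Star*) had at most 0.892 CPM. In whole-kidney RNA, fewer cells of a type and less RNA per cell cannot be told apart.

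Mitochondrial ribosomes translate the few proteins encoded by mitochondrial DNA, all of them subunits of the respiratory chain and ATP synthase. Their rRNAs come from mitochondrial DNA, but their proteins are made in the cytosol from nuclear genes and imported. Many of these proteins descend from those of bacterial ribosomes, and others were added during the evolution of mitochondria. The small subunit binds and decodes the mRNA, and the large subunit forms the peptide bond and holds the exit tunnel at the inner membrane. The tubules of the kidney, above all the proximal tubule, are rich in mitochondria, and inherited defects of several of these proteins (MRPS16, MRPS22, MRPL3, MRPL12 and MRPL44 among them) cause combined deficiency of oxidative phosphorylation in humans.

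All 76 genes were detected, and none had a mean under 5 CPM. Of all gene symbols, 42.4% reached 5 CPM. The members ranged from 5.79 CPM (*Mrps28*) to 47.3 CPM (*Mrps6*), with a median of 12.96 CPM. At 10 CPM the share was 69.7% of members (53 of 76) and 32.2% of all symbols. The median member lay at percentile 72.7 of all symbols by mean CPM, and at percentile 51.1 among symbols with at least 1 CPM. By plain CPM, which takes no account of transcript length, the members thus lay near the middle of the expressed genes. They spread over an 8.18-fold range.

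CPM counts reads on a whole transcript, so that a long transcript collects more reads at the same number of molecules. Levels were therefore compared between genes as CPM per kilobase (kb) of transcript, with lengths from GENCODE M21 on GRCm38, the assembly also named mm10. For this scale each gene was represented by its highest RefSeq mRNA entry, which could be matched to a transcript length for all 76 members. On this scale the members had a median of 9.20 CPM per kb, with quartiles of 5.60 and 15.1 CPM per kb. All 76 members lay above the median of the 20167 genes with a matched length, 59 of them above percentile 75 and 21 above percentile 90. Among the 12499 matched genes with at least 1 CPM the median was 4.06 CPM per kb. Their upper quartile was 9.04 CPM per kb, just below the median of the members. The transcripts of the family were short, with a median of 1225 bases against 3030 bases for those 12499 genes.

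The large subunit had a median of 12.98 CPM and the small subunit of 12.66 CPM, a ratio of 1.03. Per kb of transcript the medians were 9.96 and 8.48 CPM per kb, a ratio of 1.18. The quartiles were 6.05 and 15.8 CPM per kb for the large subunit and 5.62 and 12.7 CPM per kb for the small subunit, so that the bulk of both distributions covered the same range. Of 29 small-subunit genes, 13 lay above the median of the large subunit. The spread among genes, as the SD of log2 CPM per kb, was 1.08 in the large and 1.13 in the small subunit, against 1.57 over the 9537 matched genes with at least 5 CPM. No gene is a replicate of another, and no test was made.

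**Figure D1:**
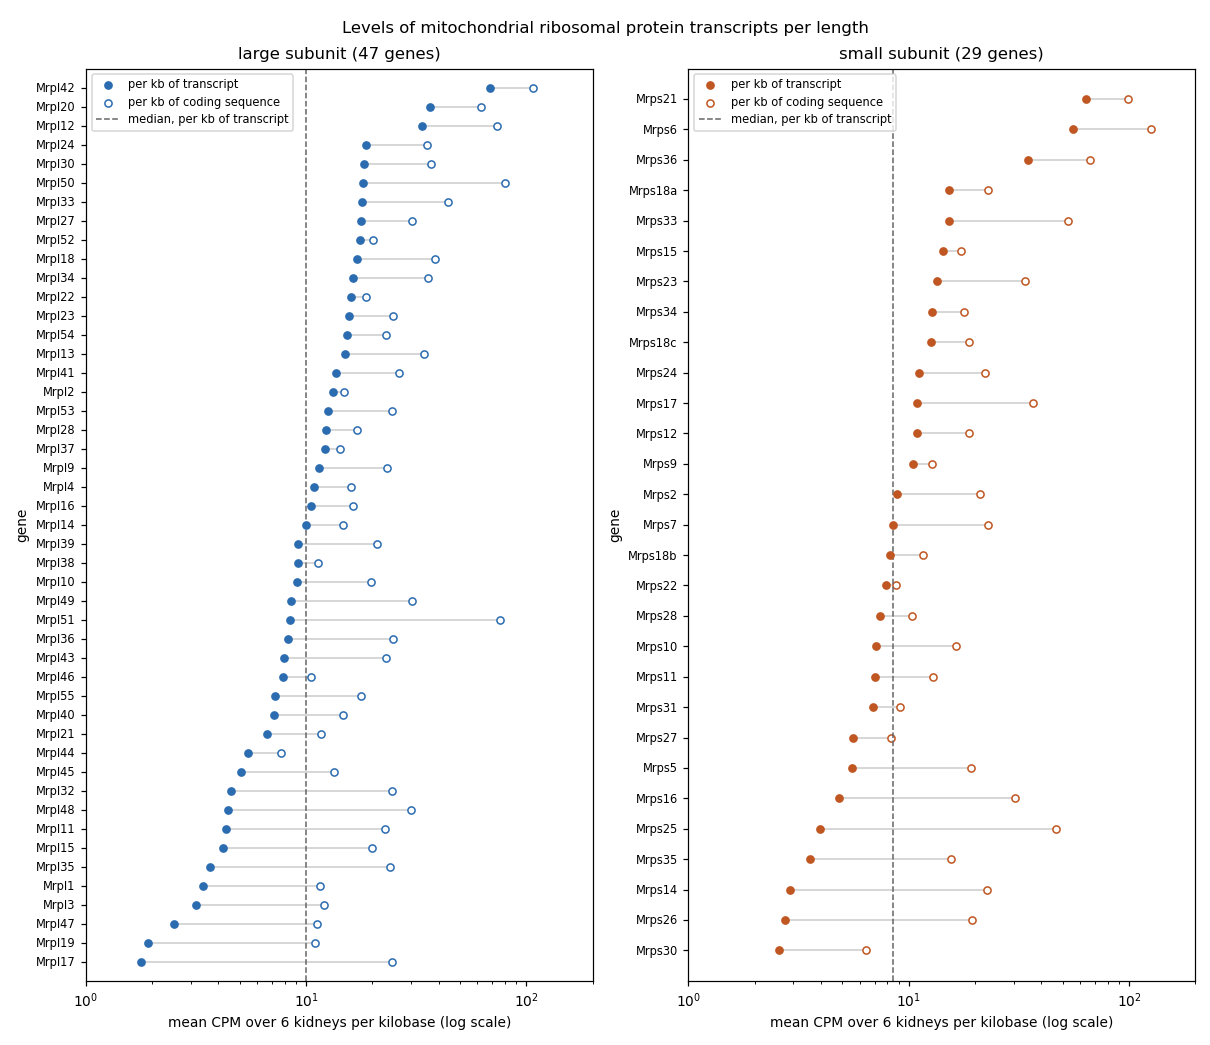
Mean CPM over 6 kidneys per kb of transcript (filled) and per kb of coding sequence (open) for each gene of the large (left) and small (right) subunit, on a log axis. The dashed lines mark the medians per kb of transcript, 9.96 and 8.48 CPM per kb; Mrpl42 and Mrps21 stand highest per kb of transcript, and long grey lines mark genes with long untranslated regions such as Mrpl17 and Mrps25.

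In the large subunit *Mrpl42* stood highest, at 68.3 CPM per kb. It encodes a protein with no relative in bacterial ribosomes and lies on chr10:95480806-95501927 with 6 exons. *Mrpl20*, a relative of bacterial L20, followed with 36.6 CPM per kb (chr4:155803521-155808831). *Mrpl12*, the protein of the flexible stalk that receives the translation factors, had 33.6 CPM per kb (chr11:120484613-120489065). The next on this scale were *Mrpl24* at 18.7 CPM per kb and *Mrpl30* at 18.3 CPM per kb. In bacterial ribosomes the stalk holds several copies of the L12 protein for each ribosome, whereas most other proteins are present once. On the plain CPM scale *Mrpl42* had 45.5 CPM and *Mrpl12* had 44.3 CPM, followed by *Mrpl50* with 38.2 CPM, *Mrpl51* with 29.1 CPM and *Mrpl20* with 27.98 CPM.

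The lowest genes of the large subunit per kb of transcript were *Mrpl17* (1.78 CPM per kb), *Mrpl19* (1.92), *Mrpl47* (2.51), *Mrpl3* (3.16) and *Mrpl1* (3.41). All of them are relatives of bacterial proteins. Their transcripts are long, from 3364 bases for *Mrpl47* to 7300 bases for *Mrpl17*, and most of that length is 3′ untranslated region (3′-UTR). *Mrpl17* (chr7:105803206-105811099) codes for 176 amino acids in front of a 3′-UTR of 6651 bases. Its 12.98 CPM equalled the median of the large subunit.

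In the small subunit *Mrps21* stood highest with 64.0 CPM per kb (chr3:95862654-95870619). It encodes a relative of bacterial S21 of only 87 amino acids, on the shortest transcript of the family, 405 bases. *Mrps6* had 55.9 CPM per kb (chr16:92058270-92112227) and *Mrps36* had 34.9 CPM per kb (chr13:100736077-100744657). MRPS36 is also known as a component of the 2-oxoglutarate dehydrogenase complex of the citric acid cycle, and its place in the ribosome has been questioned. *Mrps18a* and *Mrps33* followed with 15.3 CPM per kb each.

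The level of *Mrps6* is uncertain, because 36.1% of its transcript lies in exons that the annotation shares with 2 other genes on the same strand, *Slc5a3* and *Gm49711*. *Slc5a3*, the myo-inositol transporter that renal cells use to build up osmolytes, had 160 CPM in the same table. How reads on the shared exons were divided was not tested. *Mrpl53* lies entirely within exons of a gene model on its strand, *Gm42688*, and *Mrpl33* and *Mrps18c* share 37.0% and 27.3% of their length with others. The remaining overlap on the same strand was 2.54% for *Mrpl51*. Without these 5 genes the ratio of the subunit medians per kb was 1.17.

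The lowest genes of the small subunit per kb of transcript were *Mrps30* (2.57 CPM per kb), *Mrps26* (2.73), *Mrps14* (2.89), *Mrps35* (3.58) and *Mrps25* (3.95). Their transcripts run from 2999 bases (*Mrps14*) to 6073 bases (*Mrps25*). *Mrps30*, on chr13:118378381-118387252, is a small-subunit protein by name only, since structures place it in the large subunit, and the same is true of *Mrps18a*. Moving both genes to the large subunit left the ratio of the medians per kb at 1.18. This was certain beforehand, because *Mrps30* lies below and *Mrps18a* above the medians of both subunits.

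The 3 members of the S18 group offer a comparison within a family of paralogs. *Mrps18a* had 15.3 CPM per kb, *Mrps18c* 12.6 CPM per kb and *Mrps18b* 8.24 CPM per kb. Structures place MRPS18A in the large subunit and the other two in the small subunit. The same order held per kb of coding sequence, with 18.7 CPM per coding kb for *Mrps18c* and 11.7 for *Mrps18b*.

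The order of the genes depended on the length used. The lengths of the authors' own annotation were not used here, and a 3′-UTR that is longer in GENCODE than in that annotation lowers the value per kb. Per kb of coding sequence, the family ranged from 6.43 (*Mrps30*) to 126 (*Mrps6*) CPM per coding kb, with a median of 21.1. This scale leaves both UTRs out of the length only. Reads on the UTRs stay in the count, so that a gene with long UTRs is raised on it. The lowest 5 genes of the large subunit on this scale were *Mrpl44*, *Mrpl46*, *Mrpl19*, *Mrpl47* and *Mrpl38*, of which 2 were among the lowest 5 per kb of transcript. Of the lowest 5 genes of the small subunit, only *Mrps30* was shared. *Mrpl17* moved from rank 47 to rank 19 of the large subunit, at 24.6 CPM per coding kb, and *Mrps25* from rank 25 to rank 5 of the small subunit, at 46.7 CPM per coding kb. Of the highest 5 genes, 3 were shared in the large subunit (*Mrpl42*, *Mrpl12* and *Mrpl20*) and 4 in the small subunit (*Mrps6*, *Mrps21*, *Mrps36* and *Mrps33*). In the large subunit *Mrpl50* (80.0 CPM per coding kb) and *Mrpl51* (75.8) ranked above *Mrpl12* (73.4) and *Mrpl20* (62.6) on the coding scale. In the small subunit *Mrps36* (66.5) was followed by *Mrps33* (53.1) and *Mrps25* (46.7).

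Genes with a long 3′-UTR were low on the scale per kb of transcript. The 3′-UTR exceeded 2000 bases in 17 genes, 11 of the large and 6 of the small subunit. These 17 genes had a median of 3.65 CPM per kb of transcript, and none was above 8.49 CPM per kb. The other 59 genes had a median of 11.4 CPM per kb. On the plain CPM scale the classes had medians of 13.2 and 12.3 CPM. Transcript length and CPM per kb had a Spearman correlation of -0.76 across the 76 genes, and -0.51 across the 9537 matched genes with at least 5 CPM. Length is the divisor of the level on this scale, so that the 2 measures are not independent, and plain CPM rose with length only weakly (0.27 across the 76 genes).

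**Figure D2:**
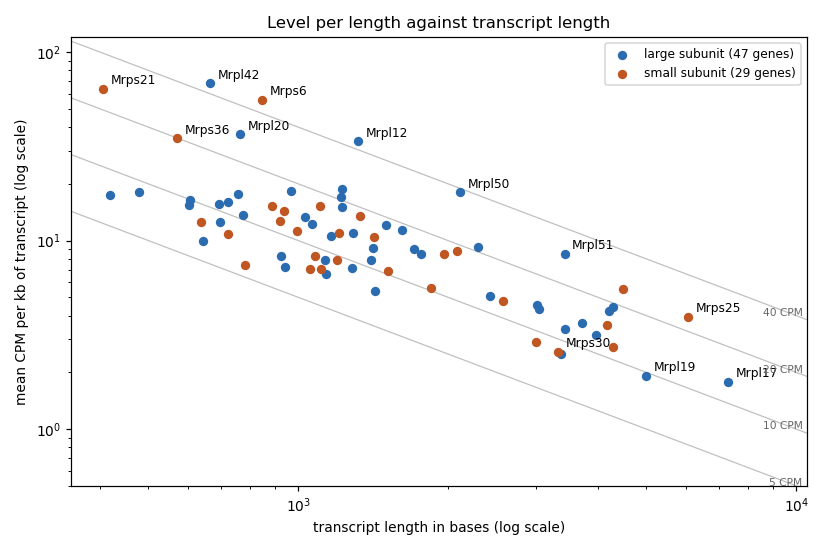
Mean CPM per kb of transcript against transcript length for the 76 genes, both on log axes, with grey lines of equal CPM. Most points fall between the lines for 5 and 20 CPM at all lengths, and Mrpl42, Mrps6, Mrpl12 and Mrpl50 lie near 40 CPM.

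Members were also grouped by the origin of the protein. In the large subunit the 30 relatives of bacterial proteins had a median of 10.7 CPM per kb and the 17 proteins found only in mitochondria 9.17 CPM per kb. In the small subunit the medians were 9.67 CPM per kb for 18 relatives and 6.92 CPM per kb for 11 mitochondrial proteins. In plain CPM the corresponding medians were 13.2 and 12.3 for the large and 13.04 and 11.7 for the small subunit. The ranges of these sets overlapped throughout, from 1.78 to 36.6 CPM per kb and 4.42 to 68.3 CPM per kb in the large subunit.

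The choice of transcript entry mattered for a few genes. A single entry was listed for 44 members and several for 32, and the 122 entries comprised 83 RefSeq mRNAs, 2 RefSeq non-coding RNAs and 37 transcripts that the authors had assembled from the reads. In 17 of the 32 genes the highest and lowest entries were within 1.1-fold of each other. How reads on exons common to several entries were counted was not tested. The ratio exceeded 1.5 in 7 genes. It was largest for *Mrps27*, whose protein binds RNA with pentatricopeptide repeats, with 10.4 CPM for the RefSeq mRNA and 1.73 CPM for an assembled transcript. *Mrps17* ranged from 4.38 to 14.2 CPM over 4 entries. *Mrpl3*, a protein near the peptidyl transferase centre, ranged from 4.73 to 12.6 CPM. *Mrpl22*, which lines the exit tunnel, ranged from 4.89 to 11.5 CPM, and *Mrpl45*, which holds the ribosome to the inner membrane, from 5.71 to 12.3 CPM. With the lowest entry of every gene in place of the highest, the ratio of large to small subunit medians in CPM was 0.945.

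**Figure D3:**
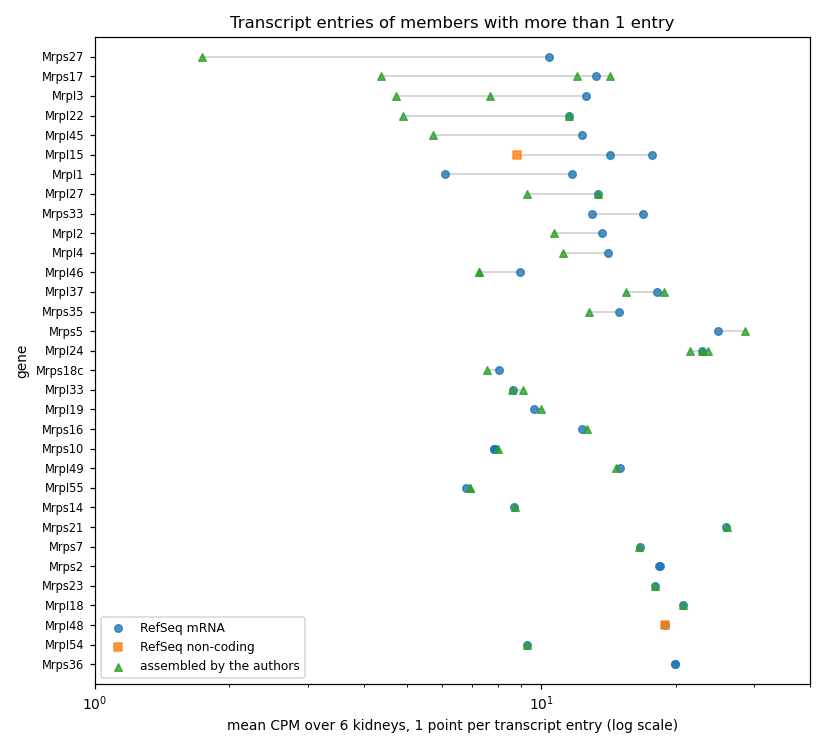
Mean CPM over 6 kidneys of every transcript entry (log axis) of the 32 members with more than 1 entry, ordered by the ratio of the highest to the lowest entry. Most genes have entries at nearly the same value, and Mrps27, Mrps17, Mrpl3, Mrpl22 and Mrpl45 have the widest ranges.

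Exons of 23 members overlap a gene on the opposite strand in GENCODE. The library kit keeps the strand, but the strand setting of the authors' read counting is not given in the sources used here, so that reads of such pairs cannot be told apart. The longest overlap was that of *Mrps25*, with 4590 of its 6073 bases in exons of *Nr2c2*. *Mrpl19* followed with 1962 of 5000 bases in exons of *Gcfc2*. The levels and ranks given above for these genes are therefore uncertain. In one case both partners are members, with 173 bases of *Mrps11* (7.43 CPM) in exons of *Mrpl46* (8.93 CPM). RefSeq lists 6 pseudogenes named after members, of 4 parent genes (*Mrpl23*, *Mrpl27*, *Mrpl48* and *Mrps36*), whose counts are less certain where reads match both copies. *Mrps36* alone has 3 of them.

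The members lie on 17 chromosomes, with at most 10 on one (chromosome 11). With starts taken as the outer ends of the GENCODE gene models, a start of another protein-coding gene on the opposite strand was found within 500 bases upstream for 16 of the 76 members, or 21.1%. The share was 9.37% over 9296 protein-coding genes with at least 5 CPM and 6.14% over all 21924. It was 21.3% in the large and 20.7% in the small subunit. With the starts of the matched RefSeq transcripts in place of the outer ends, 16 members were again found, 11 of the large and 5 of the small subunit, against 9.04% of the 9537 matched genes with at least 5 CPM. These 16 include *Mrpl46* and *Mrps11*, whose transcripts start head to head 30 bases apart but whose gene models overlap. By gene model *Mrps12* pairs in this way with *Sars2*, which encodes the mitochondrial seryl-tRNA synthetase, at 172 bases, and *Mrpl49* with *Fau*, which encodes a protein of the cytosolic small subunit, at 59 bases. The other partners included *Hira*, *Psma2*, *Klc4*, *Ppp1r10*, *Helq* and *Ncapd2*.

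Promoters were compared next, as a feature of the genes that the choice of members did not use. Promoter sequences of RefSeq (GRCm38.p6), from 250 bases before to 50 bases after the start, were available for 67 members (73 promoters). Those of *Mrpl4*, *Mrpl13*, *Mrpl15*, *Mrpl19*, *Mrpl38*, *Mrpl54*, *Mrps28*, *Mrps34* and *Mrps35* were not analysed here. The promoters were searched on both strands for the core CCGGAAG of the ETS family, to which GABPA (NRF2) belongs, for the NRF1 core GCGCATGC, for the YY1 core AAGATGGC, for the E-box CACGTG and for CCAAT. GABPA, NRF1 and YY1 are known regulators of nuclear genes for mitochondrial proteins. No matches of different motifs overlapped in the members.

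An ETS core was found in the promoters of 24 of 67 members (35.8%), against 20.6% of 7400 protein-coding genes with at least 5 CPM and 9.93% of all 27025 genes with a promoter. A YY1 core was found in 12 members (17.9%), against 5.72% and 3.19%, and an NRF1 core in 8 members (11.9%), against 6.34% and 3.05%. The E-box was found in 5 members (7.46%), against 12.4% and 8.09%, and CCAAT in 27 (40.3%), against 42.7% and 41.1%. The median GC content of the member promoters was 58.0%, that of the expressed genes 61.3% and that of all genes 52.8%. Counted per promoter, an ETS core was present in 32.9% of the 73 member promoters. The share was 17.3% of the 9576 promoters of protein-coding genes with at least 5 CPM and 8.86% of all 32851 promoters. At least 1 of the ETS, NRF1 and YY1 cores was present in 36 members, and none of the 3 in 31.

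The subunits differed most in NRF1, which was found in 7 of 41 large-subunit genes (*Mrpl9*, *Mrpl10*, *Mrpl17*, *Mrpl22*, *Mrpl32*, *Mrpl33* and *Mrpl39*) and 1 of 26 small-subunit genes (*Mrps18b*). The ETS core was present in 13 of 41 and 11 of 26, and the YY1 core in 6 of 41 and 6 of 26. In 4 genes, *Mrpl17*, *Mrpl22*, *Mrpl33* and *Mrps18b*, the ETS and NRF1 cores occurred together. These counts are small and describe which letters occur in the promoters, not which factors bind there.

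Positions differed between the motifs. Of 28 ETS matches, 17 began within 100 bases before the start and 8 after it. Of 12 YY1 matches, 8 began after the start, between bases 12 and 37, so that the core lies at the 5′ end of the transcript. The 14 NRF1 matches had a median position of -49.5, with 1 match after the start. *Mrpl9*, *Mrpl32* and *Mrpl39* each hold a pair of overlapping matches on opposite strands, at -28 and -26 in *Mrpl9*. Both matches of such a pair were counted, so that the number of separate sites is lower.

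**Figure D4:**
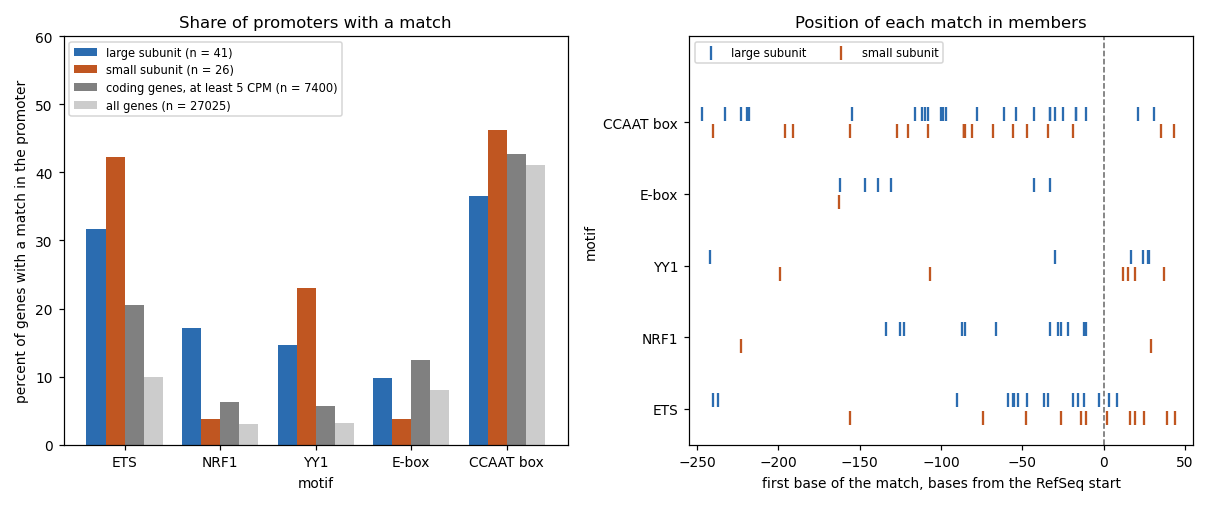
Left, percent of genes with a match to each motif in the promoter, for large-subunit (41) and small-subunit (26) genes, protein-coding genes with at least 5 CPM (7400) and all genes (27025). Right, position of each match in the members relative to the RefSeq start (dashed line), where ETS and NRF1 matches crowd just before the start and YY1 matches just after it.

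The stretches below are examples of ETS cores that lie wholly before the start, for the members described above by their level per length, their range of entries or their place in the S18 group, with the core in capitals on whichever strand it was found (CTTCCGG is the same core read on the opposite strand). Each line gives 30 bases of RefSeq promoter sequence of GRCm38.p6, read along the strand of the gene.
Mrpl3, chr9:105053238-105053267, plus strand, -30 to -1: tgagaaacggaCCGGAAGtggcccggctgt
Mrpl17, chr7:105811306-105811335, minus strand, -248 to -219: gcatgctccgcCCGGAAGgcgcctcctcca
Mrpl22, chr11:58171600-58171629, plus strand, -64 to -35: cttttccggtcCCGGAAGccggcctcggac
Mrps18a, chr17:46110967-46110996, plus strand, -37 to -8: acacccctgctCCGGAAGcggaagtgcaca
Mrps18c, chr5:100798592-100798621, plus strand, -167 to -138: gggtcacgtgaCTTCCGGcccgggaagcgc
Mrps26, chr2:130563727-130563756, plus strand, -30 to -1: tggtgctccgcggccaCTTCCGGgccgggc
Mrps27, chr13:99344727-99344756, plus strand, -59 to -30: tggtaggaccaCTTCCGGcggaggcgggct

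The floxed cluster of the DKO mice encodes miRNAs of 4 seed families, and matches to their seeds were sought in the 3′-UTRs of the members. The 6 mature miRNAs, from RefSeq on chromosome 14 of GRCm38.p6, are shown with the seed (bases 2 to 8) in capitals. miR-17 and miR-20a share a seed, as do miR-19a and miR-19b.
mmu-miR-17-5p: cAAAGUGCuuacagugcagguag
mmu-miR-20a-5p: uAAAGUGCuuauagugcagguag
mmu-miR-18a-5p: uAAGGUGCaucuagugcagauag
mmu-miR-19a-3p: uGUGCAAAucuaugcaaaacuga
mmu-miR-19b-3p: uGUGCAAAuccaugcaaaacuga
mmu-miR-92a-3p: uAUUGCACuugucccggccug

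A match to bases 2 to 8 of the miR-17 family was present in the 3′-UTRs of 7 of 76 members (9.21%), against 14.8% of the 9537 matched genes with at least 5 CPM. For miR-19 the shares were 5.26% (4 members) and 12.8%, for miR-18 6.58% (5 members) and 8.99%, and for miR-92 2.63% (2 members) and 7.65%. Any of the 4 families had a match in 15 members (19.7%), against 33.3%. The members have short 3′-UTRs, with a median of 327 bases against 1116 bases. Among the 4589 of these genes whose 3′-UTR lay within the quartiles of the members (median 675 bases), the shares were 7.52% for miR-17, 7.17% for miR-19, 4.23% for miR-18, 4.25% for miR-92 and 20.5% for any of them. The shares of the members include all 76 of them, also those with a 3′-UTR beyond their upper quartile of 1412.5 bases. The sets are therefore not matched for length, and the direction of a difference cannot be read from these shares. Of the members with a miR-17 match, only *Mrps24* (466 bases) has a 3′-UTR within the quartiles. No test was made. Per kb of 3′-UTR the family held 0.101 miR-17 matches, against 0.109 in the 9537 genes, and 0.239 matches of any family, against 0.318. Among the 15 members with a match, 9 had a 3′-UTR over 2000 bases. The large subunit had a match of any family in 7 of 47 genes and the small subunit in 8 of 29.

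Of the 19 matches, 6 were followed by an A, the base that Argonaute prefers opposite the first base of a miRNA. They are shown with the 7 matching bases in capitals and up to 15 bases before and 8 bases after them.
Mrpl1, miR-17 match, 3′-UTR bases 1293 to 1299: gtgtttctgcaacagGCACTTTaccatgga
Mrps35, miR-17 match, 3′-UTR bases 1624 to 1630: atttatggcatatcaGCACTTTaaagactc
Mrpl43, miR-18 match, 3′-UTR bases 352 to 358: atggcattgggcaagGCACCTTatatccgt
Mrpl17, miR-19 match, 3′-UTR bases 142 to 148: actcacacgatcctcTTTGCACagaagata
Mrpl35, miR-19 match, 3′-UTR bases 296 to 302: gatggtatccaggttTTTGCACatgctaaa
Mrps30, miR-19 match, 3′-UTR bases 595 to 601: ttcaaacagggctgtTTTGCACaagctaca

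These 6 genes had between 8.53 (*Mrps30*) and 14.9 CPM (*Mrps35*) as a mean over both genotypes. *Mrpl3* (a miR-17 and a miR-18 match), *Mrpl35* and *Mrps5* held matches to 2 families each, and *Mrpl51* held 2 miR-17 matches. A match is a string of letters in a transcript of the annotation, and binding or repression was not tested.

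The level of the family was last set beside other genes of the same process. The 7 mitochondrial ribosomal proteins with symbols of another form (*Dap3*, *Ptcd3*, *Chchd1*, *Aurkaip1*, *Gadd45gip1*, *Ict1* and *Mrp63*) had a median of 8.20 CPM per kb, from 2.36 (*Gadd45gip1*) to 17.3 (*Chchd1*). With them added to their subunits, the ratio of large to small subunit was 1.13 per kb and 0.950 in CPM. The 14 translation factors and mRNA partners had a median of 5.41 CPM per kb, from 1.62 for the release factor *Mtrf1l* to 26.7 for the elongation factor *Tufm*. The 21 assembly and rRNA factors had a median of 2.73 CPM per kb, from 1.17 for the rRNA methyltransferase *Mrm1* to 25.2 for the RNA granule protein *Grsf1*. The 17 mitochondrial aminoacyl-tRNA synthetases had a median of 2.07 CPM per kb, from 0.330 for *Mars2* to 35.5 for *Lars2*. The low value of *Mars2* rests on a RefSeq mRNA entry of 3.73 CPM and a matched transcript of 11294 bases. The highest entry of *Mars2* had 7.06 CPM, equal to the median of the synthetases in CPM. Per kb, the median of the synthetases was 0.225 of that of the 76 ribosomal proteins. In plain CPM the median was 12.96 for the 76 ribosomal proteins and 10.7 for the 7 with other symbols. It was 14.1 for the translation factors and mRNA partners, 5.78 for the assembly and rRNA factors and 7.06 for the synthetases. The translation factors thus lay below the ribosomal proteins per kb and above them in plain CPM.

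Cytosolic ribosomal proteins were far more abundant. The 82 genes of that list had a median of 131 CPM per kb, 14.2-fold that of the mitochondrial ribosomal proteins, and ranged from 0.0257 for *Rpl10l* to 583 CPM per kb for *Rps24*. *Rpl10l* had 0.0263 CPM, the lowest value of all 23276 gene symbols, and 79 of the 82 genes reached 1 CPM. Only *Mrpl42* and *Mrps21* exceeded 60 CPM per kb in the mitochondrial family. No replicate error can be set beside these ratios, and genes with near-identical pseudogenes, which are numerous for cytosolic ribosomal proteins, are uncertain in their counts.

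**Figure D5:**
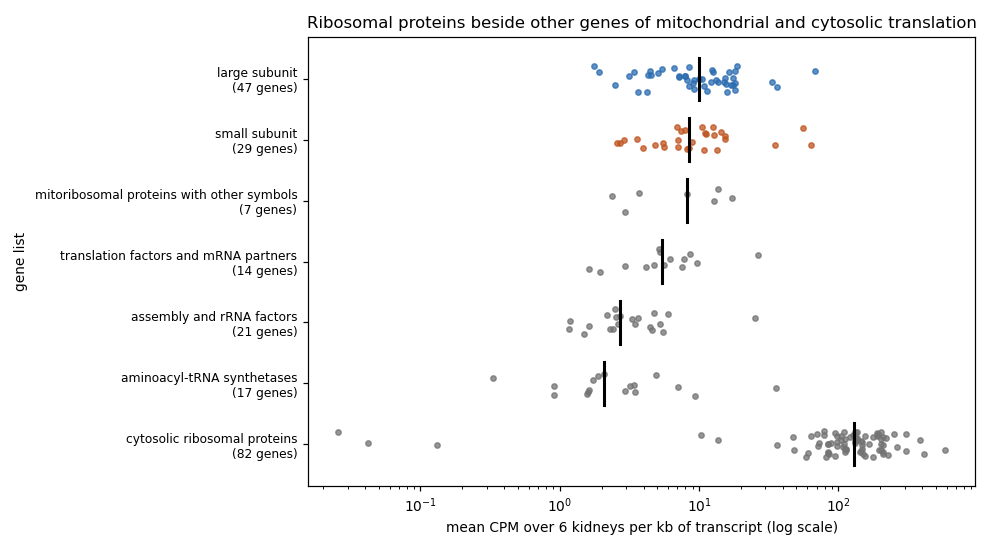
Mean CPM over 6 kidneys per kb of transcript (log axis) for genes of the large (47) and small (29) subunit and of 5 other lists, 1 point per gene, with the median as a black bar. Both subunits have medians near 9 CPM per kb, above the assembly factors (2.73) and synthetases (2.07) and below the cytosolic ribosomal proteins (131).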

How the data were processed

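Whole-kidney RNA of 3 *Pkd1* F/RC SKO and 3 *Pkd1* F/RC DKO mice was sequenced as strand-specific total RNA libraries. The authors trimmed single-end reads, mapped them to mm10 with an iGenomes annotation and discarded alignments of low mapping quality. The submitters' processing notes name bcl2fastq 1.8.4, TopHat2 2.0.12, Cufflinks, featureCounts of Subread 1.4.6 and edgeR 3.2.4. The deposited table holds the authors' edgeR comparison, and its 4 columns of comparison results (fold change, likelihood ratio, p-value and adjusted p-value) were not used. The deposited log2 value used is the authors' mean log2 CPM over all 6 libraries. It carries no error, and library depth is unknown. The planned test between genotypes needs a value per kidney and was not run.

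Members, gene lists and motifs were chosen with earlier results of these data known. CPM was 2 raised to the deposited value. Lengths, UTRs and overlaps came from GENCODE M21 through RefSeq identifiers, with the longest coding transcript matched to each identifier. Named genes were the 5 highest and 5 lowest per kb in each subunit, the 5 with the widest range of entries, the member nearest 1 CPM, a few of structural interest, and the extremes of the other lists; *Mrpl44*, *Mrpl46*, *Mrpl38*, *Mrpl50*, *Mrpl51*, *Mrpl53*, genes sharing exons or promoters, and genes with motif or seed matches were named after their values were seen. The functions were tested on simulated data. Software was pandas 2.3.3, scipy 1.17.1 and numpy 2.4.6 under Python 3.11.15.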

Additional observations from a re-analysis of the deposited data

How the results depend on the processing

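The ratio of large to small subunit medians in CPM, 1.03, was 1.18 with the sum of all entries of a gene and 1.05 with RefSeq mRNA entries only. A sum may count reads on exons common to several entries more than once. The ratio in CPM turned below 1 with the lowest entry of each gene (0.945) and with the 7 proteins of other symbols added (0.950), so that its direction depends on these choices. The ratio per kb, 1.18, was 1.13 with the 7 proteins added, 1.20 with coding length and 1.17 without members sharing exon bases on their strand, the last of which was chosen after seeing the data. The median percentile of the members, 72.7, was 68.2 with summed entries, 70.2 with RefSeq mRNA entries only and 51.1 among genes with at least 1 CPM. The share of members reaching a threshold was 100% at 0.5, 1 and 5 CPM and 69.7% at 10 CPM. Moving *Mrps30* and *Mrps18a* to the large subunit changed neither ratio at 3 significant digits. That was certain beforehand, since on both scales *Mrps30* lies below and *Mrps18a* above the medians of both subunits. The share of members with a divergent neighbour was again 21.1% with transcript starts, though not for all the same genes, a choice made after seeing the data. Another count test, another normalization, a filter on low counts and fits without single kidneys were planned for a comparison of genotypes and were not run, since a value per kidney was not analysed here. No paired analysis was possible because no result comes from a test between samples. Depth is unknown, so the precision of low values is unknown too.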

Other observations

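Nuclear genes of the respiratory chain, which mitochondrial ribosomes help to build, had higher median transcript levels than the ribosomal proteins in each of 5 complexes. Sets were formed by symbol family after the data were seen and were not tested. Whether each gene encodes a subunit of the complex its symbol points to was not checked. Of nuclear genes with Nduf symbols, taken as the set for complex I, all 36 lay above the median of the mitochondrial ribosomal proteins. This set had a median of 52.0 CPM per kb of transcript, from 19.8 (*Ndufv3*) to 217 (*Ndufa4*). The median was 92.9 CPM per kb for the 4 genes of complex II, whose subunits are all encoded in the nucleus, and 94.9 CPM per kb for 9 genes of complex III. For 17 genes of complex IV it was 112 CPM per kb, with *Cox6c* highest at 352 and *Cox7b2*, a tissue-specific isoform gene, lowest at 0.0486. For 16 genes of complex V it was 131 CPM per kb, led by *Atp5b* at 444. The median of the mitochondrial ribosomal proteins was exceeded by all 4 genes of complex II, all 9 of complex III, 11 of 17 of complex IV and 15 of 16 of complex V. The medians of the complexes were between 5.65-fold (complex I) and 14.3-fold (complex V) that of the mitochondrial ribosomal proteins.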
